A study of Mus musculus with 33 samples.

Results

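The contacts compared here are those of the TEA promoter (TEAp), which drives germline transcription across the first Jα segments, in mouse DP thymocytes and in mouse liver. The libraries were chosen by their titles, which name the cell source, the genotype and the bait, and they are 5 of the 33 samples of the series: 3 of DP thymocytes and 2 of liver. All 5 came from Rag1-/- mice on a C57BL/6 background with the CTCF-binding element EACBE intact (CBE wild type), so the Tcra-Tcrd locus was unrearranged in both groups. For the DP group, mice aged 3 weeks received 150 μg of the anti-CD3 antibody 2C11 into the peritoneum and their thymi were collected after 10 days, so the DP cells arose by antibody in place of a pre-TCR signal. Liver was taken as whole tissue and made into a cell suspension, and is a mixture of cell types. The age of the liver mice and whether they were injected are not given in the sources used here. For each library 10 × 10⁶ cells were fixed in 1% formaldehyde and cut with 200 U of MboI, and the multiway variant of 3C-HTGTS was used: a primer in the TEAp fragment reads through the ligation junctions, and the first 2 MboI fragments after the bait give a three-way contact of the bait with a pair of fragments. The files hold contacts and no expression, so neither tissue label could be checked against marker genes. The question was how the contacts of TEAp, and the pairs of sites it meets at the same time, differ between cells at the thymic stage in which Tcra is normally rearranged and a non-lymphoid tissue.

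The Tcra-Tcrd locus holds a long array of V segments, the Tcrd D, J and C segments nested within it, a string of Jα segments, and Trac with the enhancer Eα, followed by the broadly expressed gene Dad1. TEAp lies just upstream of the most 5' Jα segments and the first rearrangements of Tcra in DP thymocytes join proximal V segments to those Jα segments. INT1 and INT2 are CTCF-binding elements between the proximal V segments and the Tcrd D-J-C segments, and CTCF is the factor at which loop extrusion by cohesin pauses, depending on the orientation of its motif.

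The 3 DP libraries held 82294, 63903 and 95432 reads with both fragments in the 2610 kb of chromosome 14 that the matrices span (chr14:52420001-55030000, mm10), against 4852 and 1217 reads in liver. Within the 560 kb from Trav16 to the Dad1 side (chr14:53740001-54300000), called the region below, the counts were 66542, 52253 and 76656 in DP and 3333 and 818 in liver. There, 3 reads are 0.0900% of the pairs of liver replicate 1 and 0.367% of those of replicate 2, while 3 reads are at most 0.00574% in DP. Over the 5 kb bins of the region, Pearson's r between libraries was 0.994 for each pair of DP libraries, 0.930 between the liver libraries and 0.795 to 0.885 between a DP and a liver library, over the same bins and with unequal depth. The paper calls the replicates biological, but neither it nor the labels say which libraries came from separate animals, so the p-values rest on the spread between these libraries. The edgeR test estimates that spread largely from all bins, or all interval pairs, tested together. Its small p-values thus do not measure the spread of a single bin or pair between libraries. Reads carry no molecular identifiers, so intervals and limits from counts cover counting error only.

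Sequences of some captured fragments and of CTCF motif matches are shown first, while the comparison itself was made on 5 kb bins and intervals. The TEAp bait is a single MboI fragment of 492 bases at chr14:54152642-54153133, with the primer reading on the plus strand, downstream. In the DP libraries, where fragment positions were read, the most captured fragment of at most 300 bases in each of 4 intervals is given below with its GATC, the MboI site at its left end, in capitals. All are from GRCm38 (mm10), plus strand.
INT fragment, chr14:54064287-54064348: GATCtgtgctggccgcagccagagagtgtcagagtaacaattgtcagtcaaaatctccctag
Tcrd fragment, chr14:54128337-54128500: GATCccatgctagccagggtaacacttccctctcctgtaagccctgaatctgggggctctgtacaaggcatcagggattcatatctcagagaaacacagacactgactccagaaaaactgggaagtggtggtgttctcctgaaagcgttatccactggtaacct
Trav21-dv12 side fragment, chr14:53878700-53878802: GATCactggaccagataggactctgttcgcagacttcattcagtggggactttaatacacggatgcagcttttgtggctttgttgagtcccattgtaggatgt
Fragment of the Trac and Eα interval, chr14:54228261-54228414: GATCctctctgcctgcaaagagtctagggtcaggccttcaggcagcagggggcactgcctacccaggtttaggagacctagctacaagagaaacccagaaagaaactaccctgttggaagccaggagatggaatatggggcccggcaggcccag
The INT fragment of 62 bases alone took 1.60%, 1.71% and 1.62% of the fragments of the region in the 3 DP libraries, the Tcrd fragment 0.946% ± 0.0397 (SD, n = 3), the Trav21-dv12 side fragment 0.489% ± 0.0616 and the fragment of the Trac and Eα interval, which lies downstream of the Eα bait fragment of the series, 0.521% ± 0.0848. These values are for DP alone. The core letters of the CTCF motif were also searched on both strands in the whole region, and 4 matches are shown because they lie in the bins of the bait, of an INT and of V segments described below, each with 20 bases on either side, on the strand of the match, with the core in capitals.
TEAp, minus strand, chr14:54153775-54153826: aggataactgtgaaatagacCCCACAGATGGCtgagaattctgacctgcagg
INT, plus strand, chr14:54059944-54059995: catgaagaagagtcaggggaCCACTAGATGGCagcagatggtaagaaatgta
Trav17, plus strand, chr14:53806382-53806433: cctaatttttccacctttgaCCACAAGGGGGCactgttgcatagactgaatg
Trav21-dv12, plus strand, chr14:53875344-53875395: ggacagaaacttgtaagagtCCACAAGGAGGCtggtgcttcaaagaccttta
The TEAp match starts 662 bases after the end of the bait fragment. The paper places its TEAp bait in the same fragment as the CTCF element of TEAp. Whether this match, outside that fragment, is the same element was not tested. The INT bin at 54055001 holds another match, at 54056506, and the INT bins at 54060001 and 54065001 hold none. Other bins described below also hold matches that are not shown. A match is only a run of letters and no binding was measured.

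Along the region, TEAp met proximal V sequences and the Eα bin more in DP, and a set of bins between INT2 and the bait, among the Jα segments and on the Dad1 side more in liver. Of the 112 bins, 109 had the 10 counts needed for the test, and 46 of them differed (42.2%; edgeR quasi-likelihood test, Benjamini-Hochberg adjusted p under 0.05, library size from the fragments of the region). DP was higher at 32 bins (29.4%) and lower at 14 (12.8%), with a median log2 fold change over all tested bins of 0.48 (0.46 with the 9 bins at 0 in both liver libraries set to the bound of 3 liver counts). TMM factors moved this median by -0.14 and called 28 higher and 14 lower, DESeq2 moved it by -0.13 and called 37 and 22, and the whole matrix as library size moved it by 0.25 and called 42 and 9. The bins left untested held no liver fragment and between 0 and 5 DP fragments in sum. Each read adds both its fragments to these counts. A read within a single bin thus counts there with both, which the test takes as separate. Without DP replicate 1 the count fell to 29 bins, of which 19 were higher and 10 lower, and all 29 were among the 46.

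**Figure D1:**
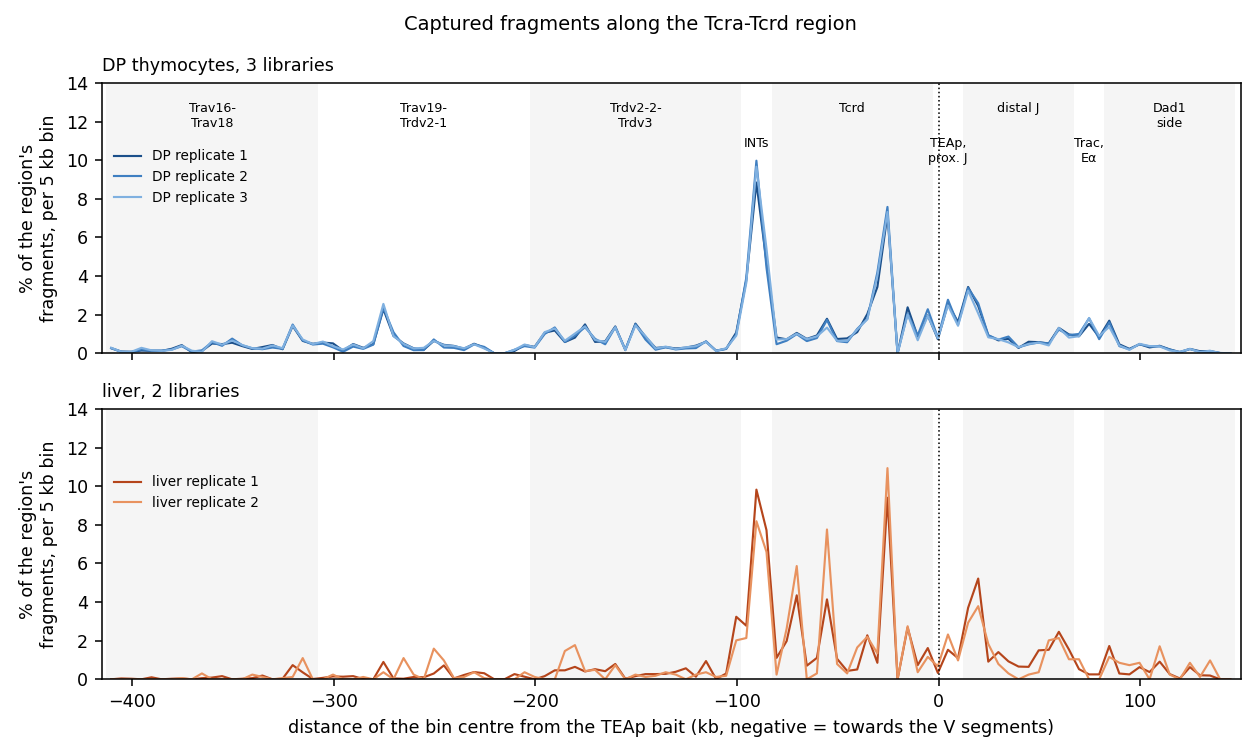
Share of the fragments of the region in each 5 kb bin, by distance along the region, for each library of DP thymocytes (upper) and of liver (lower), with the intervals shaded in turn and the bait at the dotted line. The central INT bin and the Tcrd bin at 54125001 hold the highest values in both groups, and liver has further peaks between them at 54080001 and 54095001.

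The proximal V array was where most of the higher bins lay. It has 63 bins, 61 of them tested, of which 28 were higher in DP and 2 lower, with a median log2 fold change of 1.33. The array was divided into 3 stretches of 105 kb. In the Trav16-Trav18 stretch, farthest from the bait, 13 of 21 bins were higher and none was lower (8 were not called). Its median log2 fold change was 3.00, and 1.84 with the 6 bins at 0 in both liver libraries set to the bound that 3 liver counts give. In the Trav19-Trdv2-1 stretch 7 of 19 tested bins were higher and 1 lower, with a median of 1.14, and in the Trdv2-2-Trdv3 stretch, nearest to INT1, 8 of 21 were higher and 1 lower, with a median of 0.81. Over the array 17 bins were higher and 1 lower without DP replicate 1, and 15 and 0 with each occupied bin pair counted once. In the Trdv2-2-Trdv3 stretch these settings left 3 and 1 higher. Counting each occupied bin pair once was done at full depth, so its values also depend on the unequal depth of the groups. Without pairs within a single bin the Trdv2-2-Trdv3 stretch had 6 higher and 3 lower, with a median of 0.33. Without liver replicate 1 the array had 22 higher and 6 lower, with a median of 2.61 that includes bins at 0 in the remaining liver library at their fitted values. In the Trdv2-2-Trdv3 stretch 3 bins were lower without liver replicate 1 and 3 without liver replicate 2.

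Trav17, in the farthest stretch, was among the higher bins. Its bin (chr14:53805001-53810000) held 497, 434 and 656 fragments in DP and 2 and 0 in liver, a ratio of 16.8 to the pooled liver share (95% counting interval of the liver count, 4.66 to 139; log2 fold change 4.08, SE 0.70, adjusted p = 0.001). The bin before it, at 53800001, held 729, 795 and 1017 fragments in DP and 0 in both liver libraries, which makes DP at least 18.2-fold higher when liver is set to 3 counts over the group. Other bins at 0 in both liver libraries were at 53870001 in the Trav19-Trdv2-1 stretch (at least 14.4-fold higher), 53820001 (at least 10.5-fold) and 53740001, which holds Trav16 (at least 7.55-fold). All 3 DP libraries reached each of these bins and no liver library reached any of them. The counting interval of the Trav17 bin takes fragments as separate counts. A read within a single bin adds both its fragments, so this interval may be too narrow, as may that of the Trdv1 bin below.

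Trav21-dv12, a V segment used by both Tcra and Tcrd, lay in the bin with the most fragments of the array. It took 2.29%, 2.36% and 2.56% of the fragments of the region in DP and 0.900% and 0.367% in liver (log2 fold change 1.67, SE 0.28, adjusted p = 0.001). The next bin, which holds Trdv1, had 1200, 1142 and 1369 fragments in DP and 3 and 0 in liver, 26.6 times the pooled liver share (counting interval 9.11 to 129). Trdv2-2, in the stretch nearest to INT1, had 1574, 1400 and 1974 fragments against 31 and 0 (log2 fold change 1.85, SE 0.46, adjusted p = 0.008). Against this direction, the bins at 53905001 and 54050001 were lower in DP, by log2 values of -1.05 and -1.50. The bin at 53905001 changed sign to 1.35 (adjusted p = 0.144) when pairs with both fragments in the same bin were left out.

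The INT bins held the most fragments per kb of any interval in both groups, and the central bin among them was not called. The central INT bin at 54060001, with the INT fragment printed above, took 8.85%, 9.98% and 9.67% of the fragments of the region in DP and 9.83% and 8.19% in liver. These ranges overlap, and the log2 fold change was 0.06 (SE 0.11, edgeR adjusted p = 0.720). The sign at this bin changed to -0.06 with TMM factors and to -0.05 with DESeq2, and it was -0.59 (adjusted p = 0.00019) without pairs inside a single bin. Of its neighbours, the bin at 54055001 was higher in DP (log2 fold change 0.57, SE 0.16, adjusted p = 0.016) and the bin at 54065001, which holds the INT2 bait fragment of the series, was lower (-0.58, SE 0.13, adjusted p = 0.006).

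Between INT2 and TEAp, the Tcrd segments had 1 bin higher in DP and 4 lower of 15 tested, with a median log2 fold change of -0.28. The exception was the bin of Trdd2, a Dδ segment, with 3.44%, 4.20% and 4.00% in DP against 0.855% and 1.34% in liver (log2 fold change 1.97, SE 0.23, adjusted p = 0.000248). With each occupied bin pair counted once, which drops the reads per bin pair, the value was -0.49 here (edgeR adjusted p = 0.232) and -0.56 at the INT bin 54055001 (edgeR adjusted p = 0.158). The libraries were not brought to equal depth for this, so these 2 values cannot be told apart from an effect of depth. The adjacent bin at 54125001, with the Tcrd fragment printed above, took 7.19%, 7.58% and 7.32% in DP and 9.41% and 10.9% in liver and was lower (-0.45, adjusted p = 0.005). The largest fall was at 54080001, where DP had 1.05%, 0.993% and 1.01% and liver 4.35% and 5.87% (log2 fold change -2.28, SE 0.18, edgeR adjusted p = 2.1e-05). Reads with both fragments in this bin numbered 475, 388 and 489 in DP and 119 and 39 in liver. Both fragments of each such read are counted, so the SE and p-value rest on fewer reads than fragments. The bin at 54095001 (-1.79) and the bin of Trdv4 at 54075001 (-1.65) were lower as well, so that rises and falls lay within 50 kb of each other.

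At the bait and the Jα segments the edgeR test called no bin higher in DP. Of the 3 bins of TEAp and the proximal Jα segments, however, 2 were called higher with DESeq2 and 3 with the whole matrix as library size. With distinct pairs of fragments in DP against all reads in liver 2 were called higher, while 1 was called lower with each occupied bin pair counted once. The bin with the bait held 974, 847 and 1192 fragments in DP and 22 and 11 in liver (log2 fold change 0.88, SE 0.37, adjusted p = 0.081), and the bin of Traj61 to Traj56, the most 5' Jα segments, 3409, 2899 and 3812 against 102 and 38 (0.55, SE 0.21, adjusted p = 0.063). In the distal Jα segments, 4 of 11 bins were lower and none higher, with a median of -0.64, and those at 54205001 (-1.84) and 54170001 (-0.98) led, although the latter was at 0.09 without pairs inside a single bin. The count of lower bins there was 2 without DP replicate 2, 2 without DP replicate 3, 2 with each occupied bin pair counted once and 7 without liver replicate 2, and without liver replicate 1 it was 4, with 1 higher.

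Past the Jα segments, the bin of Eα and the bin after it were higher in DP, while Trac and Dad1 were not called. The bin called the Eα bin holds the Eα bait fragment of the series, which per the paper is not the restriction fragment with Eα itself. Whether Eα itself lies in this bin was not checked. The Eα bin held 2032, 1895 and 2806 fragments in DP and 17 and 0 in liver (log2 fold change 3.12, SE 0.44, edgeR adjusted p = 0.001), and the bin after it was at 2.07 (edgeR adjusted p = 0.007). Trac, the constant region gene in the bin before, had 1176, 1047 and 1360 against 35 and 17, with overlapping shares (0.47, SE 0.34, adjusted p = 0.305). Dad1, the subunit of the oligosaccharyltransferase downstream of Eα, had 2250, 1674 and 2102 against 115 and 19, also with overlapping shares (0.01, SE 0.24, adjusted p = 0.994). Farther on, bins of the Dad1 side at 54260001, which holds Abhd4 (-1.68), 54275001 (-1.63) and 54285001 (-1.94) were lower in DP.

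Summed over intervals, the same positions separate the groups with more reads behind each value. For 82 such measures per library the exact two-sided permutation test over the 10 assignments of the group labels cannot go below p = 0.1, or 0.132 after adjustment, so none can pass the threshold and the values are given with their overlap. The groups did not overlap in 63 of the 82 (76.8%), 41 with DP above and 22 with DP below, and 62 of those reached the smallest p of the exact test. The exception, pairs of TEAp and the proximal Jα segments with the Dad1 side, is at an exact permutation p of 0.2, with 0.421%, 0.218% and 0.253% in DP and 0.210% and 0% in liver. The 82 measures are not separate results, since many are nested or are parts of the same whole. They also include the number of occupied bin pairs at full depth and the share of the fullest bin pairs, which depend on depth. The proximal V array took 31.2%, 30.0% and 32.1% of the fragments of the region in DP and 16.6% and 16.7% in liver, 1.86 times as much. The ratio was 3.74 for the Trav16-Trav18 stretch (7.31%, 7.44% and 7.77% against 1.995% and 2.02%), 1.95 for the Trav19-Trdv2-1 stretch and 1.43 for the Trdv2-2-Trdv3 stretch (14.2%, 13.7% and 14.3% against 10.5% and 9.11%). Among these 3 stretches the ratio thus was largest in the one most distant from the bait. This did not extend farther upstream. At 500 to 1000 kb the groups overlapped, with 0.158%, 0.186% and 0.173% of the fragments of the matrix per 100 kb in DP and 0.284% and 0.140% in liver.

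**Figure D2:**
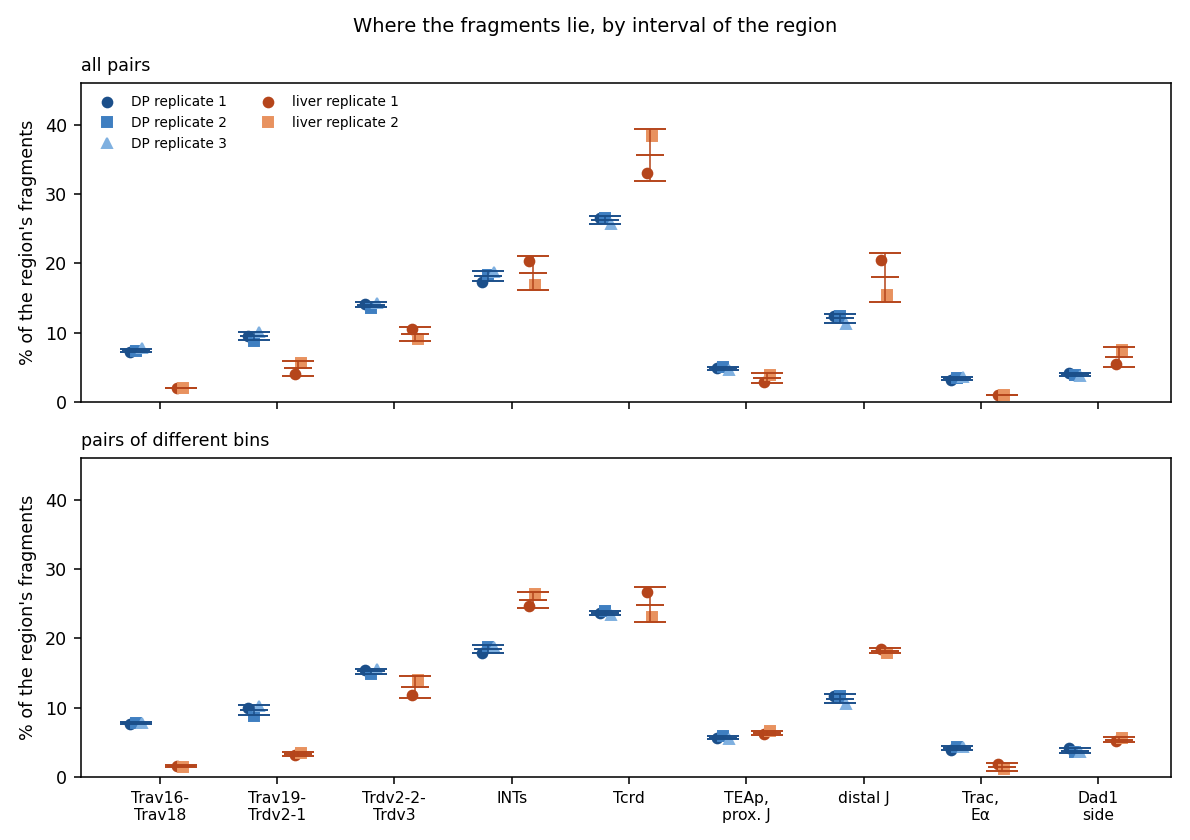
Share of the fragments of the region in each interval, over all pairs (upper) and over pairs of different bins (lower), with a point per library and the mean and SD of each group as bars. In both panels the 3 proximal V stretches and the Trac and Eα interval lie higher in DP and distal J lies lower, while the INT values overlap in the upper panel alone and the Tcrd values in the lower panel alone.

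Trac with Eα took 3.25%, 3.55% and 3.62% in DP and 1.04% in both liver libraries, a ratio of 3.35. The INTs took 17.4%, 18.3% and 18.7% against 20.3% and 16.9%, which overlap. The Tcrd segments took 26.5%, 26.6% and 25.7% against 33.0% and 38.3%, the distal Jα segments 12.5%, 12.5% and 11.3% against 20.5% and 15.5%, and the Dad1 side 4.29%, 3.98% and 3.84% against 5.55% and 7.52%.

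Liver and DP also differed in how many reads joined fragments of the same 5 kb bin. Such pairs made up 21.7%, 24.5% and 22.6% of the pairs of the region in DP and 52.7% (95% exact binomial interval 50.9 to 54.4) and 62.2% (58.8 to 65.6) in liver. With such pairs left out, the edgeR test called 32 bins higher in DP and 19 lower. Of these 51 bins, 35 were among the 46 called over all pairs. Why the groups differed in such pairs was not tested. Each share was also taken again over pairs of different bins alone, of which there were 52070, 39459 and 59338 in DP and 1578 and 309 in liver. The proximal V array then had 33.0%, 31.5% and 33.6% against 16.8% and 19.1%, and Trac with Eα 3.89%, 4.33% and 4.34% against 1.93% and 1.13%. The INTs, which overlapped over all pairs, had 17.9%, 18.8% and 18.8% against 24.7% and 26.4%, and the Tcrd segments overlapped, with 23.6%, 24.0% and 23.4% against 26.6% and 23.1%. TEAp with the proximal Jα segments went from 4.91%, 5.06% and 4.69% against 2.96% and 3.97% over all pairs to 5.68%, 5.96% and 5.53% against 6.18% and 6.63%, so its direction turned.

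Liver reads also fell on fewer bin pairs at equal depth. Depth here is in reads and not in distinct molecules. Reads per distinct pair of fragments were not analysed for liver, so the part of PCR copies in this difference was not tested. At an equal depth of 818 reads the expected number of occupied bin pairs, of the 6328 possible, was 499, 479 and 505 in DP and 231 in liver replicate 1, against the 135 observed in liver replicate 2. At full depth, on which this share also depends, the 10 fullest bin pairs held 13.8%, 15.1% and 14.9% of the reads of the region in DP and 35.8% and 42.1% in liver. Several of the fullest were single bins, such as 54095001 with 541, 481 and 460 reads in DP and 120 and 60 in liver, or 0.778% against 5.47% of the pairs on average.

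Reads of pairs of intervals tell which sites TEAp met together, and pairs that joined proximal V sequences or the Trac and Eα interval with another interval were mostly higher in DP. All 66 pairs of the 11 intervals of the matrix were tested with all reads of the matrix as library size, and 44 differed (66.7%; edgeR quasi-likelihood test, Benjamini-Hochberg adjusted p under 0.05), 35 higher in DP (53%) and 9 lower (13.6%). The median log2 fold change over the 66 was 1.32 (1.26 with the 5 pairs at 0 in liver set to their bound), and TMM or DESeq2 scaling moves it by -0.80 or -0.88. With TMM factors 17 pairs were higher and 15 lower, and with DESeq2 19 were higher and 16 lower. Without pairs inside a single bin 25 were higher and 12 lower, and 32 of these 37 were among the 44. Of the 24 pairs of a proximal V stretch with an interval outside the array, 20 were higher and none lower (13 and 1 with TMM factors), and all 3 pairs between different V stretches were higher (3 with TMM factors). Of the 10 pairs of the Trac and Eα interval with another interval, 8 were higher and none lower (4 and 0 with TMM factors), and of the 11 pairs within an interval 2 were higher and 6 lower (0 and 8 with TMM factors). Without liver replicate 1 the counts over the 66 were 25 higher and 8 lower, those of V stretches with intervals outside the array 12 and 1 of 24, and those of Trac and Eα 4 and 0 of 10. With each occupied bin pair counted once the Trac and Eα count was also 4, and it was 5 without pairs inside a single bin or with DESeq2, which called 13 higher and 1 lower of the 24.

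**Figure D3:**
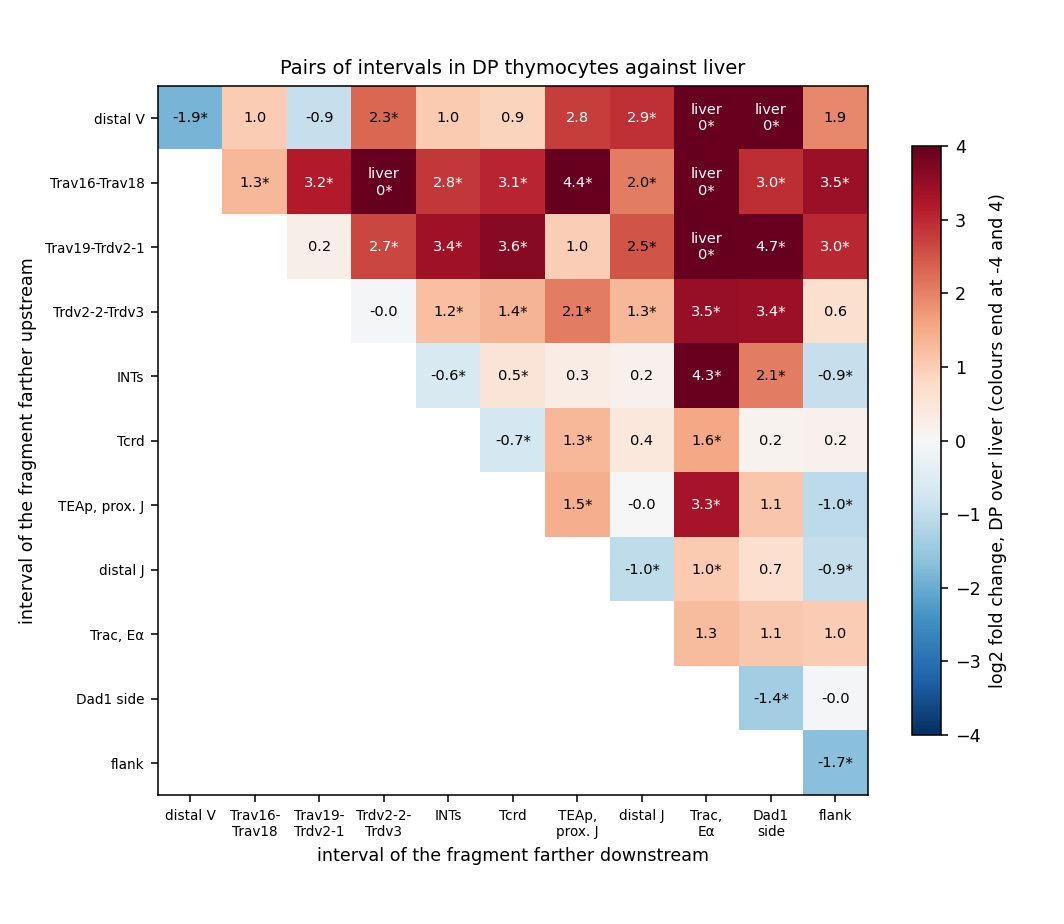
Log2 fold change, DP over liver, of the reads that join each pair of the 11 intervals, with an asterisk at an adjusted p under 0.05 and with pairs at 0 reads in both liver libraries named. Pairs of proximal V stretches and of Trac and Eα with other intervals are red, and most squares on the diagonal are blue.

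Between V stretches, reads that joined the ends of the proximal array were found in DP and none in liver. The Trav16-Trav18 stretch with the Trdv2-2-Trdv3 stretch had 952, 855 and 1220 reads in DP (1.16%, 1.34% and 1.28% of the pairs of the matrix) and 0 in both liver libraries, so DP was at least 25.4-fold higher with liver set to 3 counts over the group. The Trav19-Trdv2-1 stretch had 1643, 1311 and 2081 reads with the INTs in DP and 9 and 3 in liver (log2 fold change 3.38, SE 0.39), and 1572, 1102 and 1792 reads with the Tcrd segments against 8 and 1 (3.64, SE 0.43, adjusted p = 1.8e-13). The Trav16-Trav18 stretch had 271, 209 and 350 reads with TEAp and the proximal Jα segments against 1 and 0, 20.7 times the pooled liver share (counting interval 3.71 to 818).

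Reads that joined the Trac and Eα interval with a proximal V stretch or with the INTs numbered at most 3 over both liver libraries. With the Trav19-Trdv2-1 stretch it had 355, 200 and 468 reads in DP and 0 in both liver libraries (at least 8.33-fold higher), and with the Trav16-Trav18 stretch 218, 203 and 396 against 0 and 0 (at least 6.73-fold). With the Trdv2-2-Trdv3 stretch it had 467, 340 and 590 reads against 1 and 2 (11.6 times the pooled liver share, counting interval 3.96 to 56.2). With the INTs it had 773, 651 and 869 against 3 and 0 (19.3 times, counting interval 6.62 to 93.8; log2 fold change 4.28, SE 0.74, adjusted p = 1.7e-07). As a share of the pairs of the region, the pairs of the INTs with Trac and Eα were 1.16%, 1.25% and 1.13% in DP and 0.0900% in liver replicate 1 (exact interval 0.0186 to 0.263). In liver replicate 2 they were 0 of 818 pairs, where 3 reads would make 0.367%.

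The pairs that were lower in DP were those within an interval or with the flank downstream of the region. Pairs inside the downstream flank (chr14:54300001-55030000) made up 5.49%, 5.43% and 6.01% of all pairs in DP and 17.2% and 18.7% in liver (log2 fold change -1.66, SE 0.13, adjusted p = 9.4e-26). Pairs inside the distal and central V interval were lower (-1.85), as were those inside the Dad1 side (-1.38), the distal Jα segments (-1.03), the Tcrd segments (-0.70) and the INTs (-0.62), and those of the flank with the INTs (-0.92) and with TEAp and the proximal Jα segments (-1.03). The pair of the flank with the distal Jα segments was also called (-0.94), although its shares overlapped between the groups. The fall inside the Tcrd segments changed to 0.14 (adjusted p = 0.340) when pairs inside a single bin were left out. The pair of the INTs with the Tcrd segments was called higher at 0.53, but it was at -0.26 with TMM factors.

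At the scale of single bins, the fullest pair of different bins was the same in both groups, the neighbouring INT bins 54060001 and 54065001, with 1007, 874 and 1617 reads in DP and 77 and 33 in liver (a mean of 1.77% against 3.17% of the pairs of the region). The Trdd2 bin with its neighbour at 54125001 had 718, 634 and 867 reads in DP and 2 and 0 in liver. The central INT bin with 54125001 had 567, 513 and 837 against 7 and 0, and with the Trdd2 bin 605, 400 and 545 against 7 and 0. The INT bins 54055001 and 54060001 had 376, 540 and 461 against 36 and 4, a mean of 0.733% against 0.785%, with overlapping shares. The central INT bin with the Traj61 to Traj56 bin had 374, 317 and 377 against 19 and 0. These are the 6 fullest pairs of different bins in DP, chosen for their reads there.

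Taking only pairs with a single fragment in the INTs, the place of the other fragment differed. There were 15464, 11791 and 17806 such pairs in the region in DP and 535 and 81 in liver. The other fragment was in the proximal V array in 35.1%, 36.7% and 38.1% in DP and in 17.8% (exact interval 14.6 to 21.3) and 23.5% (14.8 to 34.2) in liver. It was in the Tcrd segments in 34.0%, 33.6% and 34.7% against 43.6% (39.3 to 47.9) and 54.32% (42.9 to 65.4), and at Trac and Eα in 5.00%, 5.52% and 4.88% against 0.561% and 0%. For the distal Jα segments the groups overlapped, with 13.2%, 12.8% and 10.9% against 23.6% and 11.1%. These pairs hold no pair within a single bin by construction.

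**Figure D4:**
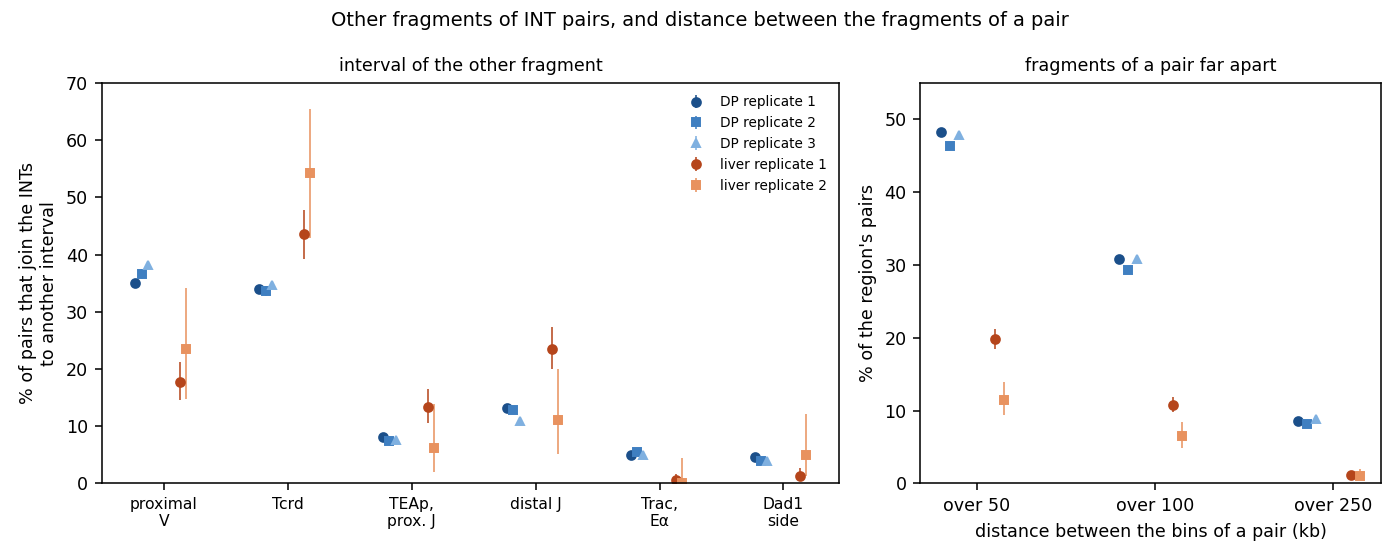
Left, where the other fragment of INT pairs lies, as a percentage of the pairs with a single INT fragment, and right, the percentage of the pairs of the region whose fragments are over 50, 100 or 250 kb apart, with a point per library and exact 95% intervals. The proximal V, the Trac and Eα and the separation values are higher in the 3 DP libraries, and the Tcrd values are higher in the liver libraries.

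Pairs of fragments far from each other took a larger share in each DP library than in either liver library. Pairs over 50 kb apart were 48.3%, 46.4% and 47.9% of the pairs of the region in DP and 19.9% and 11.5% in liver. Pairs over 250 kb apart were 8.59%, 8.16% and 8.82% against 1.08% and 0.978%, a ratio of 8.28. Over pairs of different bins alone the last values were 11.0%, 10.8% and 11.4% against 2.28% and 2.59%.

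The spread of contacts from the bait differed by side. Within 250 kb of the bait the groups overlapped, with 77.2%, 77.5% and 76.3% of the fragments of the matrix in DP and 79.0% and 75.2% in liver. Upstream, at 250 to 500 kb, which takes in the Trav16-Trav18 stretch and part of the next, DP had 5.47%, 5.37% and 5.69% of the fragments per 100 kb and liver 1.31% and 1.87%, while at 50 to 100 kb, where the INTs and part of the Tcrd segments lie, DP had 42.0%, 42.3% and 42.7% and liver 52.1% and 51.4%. Downstream, at 100 to 250 kb, the values were 2.72%, 2.50% and 2.92% against 6.27% and 6.11%, and at 500 to 1000 kb 0.316%, 0.343% and 0.333% against 1.51% and 1.64%, so liver exceeded DP 4.77 times. Of the fragments over 10 kb from the bait, 69.3%, 69.8% and 70.3% lay upstream in DP and 55.2% and 57.1% in liver.

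**Figure D5:**
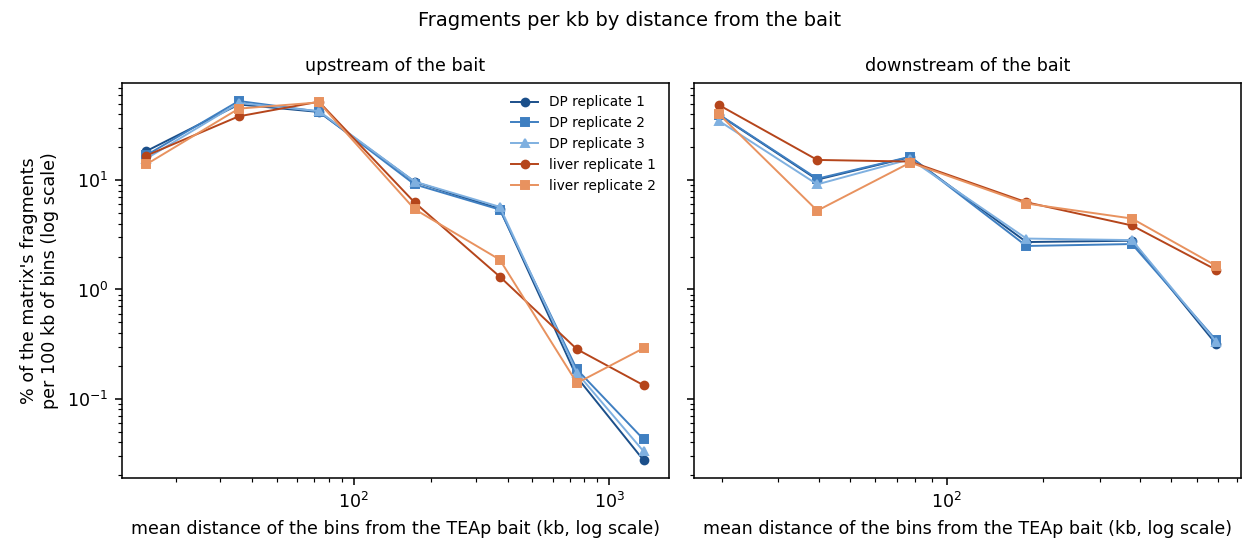
Percentage of the fragments of the matrix per 100 kb against the distance from the bait, on log axes, upstream and downstream, with a line per library. Liver lies above DP downstream from 100 kb on, and DP lies above liver upstream between 100 and 500 kb.

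The slope of log2 fragments per kb on log2 distance, which measures how fast contacts thin out, was -1.15, -1.12 and -1.10 upstream in DP and -1.19 and -1.26 in liver. Downstream it was -1.17, -1.17 and -1.11 in DP and -0.88 and -0.68 in liver. Fragments over 500 kb from the bait were 2.17%, 2.53% and 2.35% in DP and 8.07% and 8.998% in liver, and at 1000 kb and more upstream liver had 0.133% and 0.291% per 100 kb against 0.0274%, 0.0426% and 0.0331% in DP. The downstream flank took 10.9%, 10.3% and 11.4% of the fragments in DP and 22.7% (exact interval 21.8 to 23.5) and 23.5% (21.8 to 25.2) in liver. The flank holds broadly expressed genes, such as Oxa1l and Prmt5, and at its far end the cardiac myosin genes Myh6 and Myh7.

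The bins that were higher in DP differed from the lower ones in position, which the test did not use. The 32 higher bins lay at a median of 283 kb from the bait, 30 of them upstream, and 13 held a V segment. Over all 112 bins the median was 140 kb, 83 lay upstream and 19 held a V segment. The 14 lower bins lay at a median of 72.9 kb, 7 on each side, and 1 held a V segment. Base composition and MboI sites differed little: the median GC content was 41.6% in the higher bins, 43.2% in the lower bins and 42.0% in all 112, and the median number of MboI sites was 12, 13.5 and 12. The core letters of the CTCF motif, of which the region had 52 matches, 33 on the plus strand and 19 on the minus strand, occurred in 13 of the 32 higher bins (40.6%), in 7 of the 14 lower bins and in 39 of the 112 (34.8%), against 35.8% of the 24295 bins of chromosome 14.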

How the data were processed

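The counts analysed are those deposited by the authors for the 3 DP and 2 liver libraries with the TEAp bait: reads per pair of 5 kb bins of chromosome 14 (mm10), not normalized. Per the submitters' processing notes, reads were handled with fastp 0.20.0, cutadapt 1.18, Bowtie2 2.4.5, SAMtools 1.9, bedtools 2.29.2 and DESeq2 1.34.0, with settings in part not given in the sources used here; each read kept its first 2 fragments after the bait, with self-ligated and off-target fragments removed. PCR duplicates raise counts where the same junction was read repeatedly; DP libraries had 4.22, 2.94 and 3.12 reads per distinct pair of fragments in the region, a figure not analysed here for liver.

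Matrices held 1217 to 95432 reads, which sets the precision given with each share. The design planned intervals over the whole chromosome, but the matrices span 522 bins, so intervals beyond the window were left out and the library size for interval pairs was the total of the matrix. Bins and interval pairs with at least 10 counts over the 5 libraries were tested with the edgeR 4.0.16 quasi-likelihood test (R 4.3.3, Benjamini-Hochberg, 0.05), with library sizes from the fragments of the region for bins. Shares were compared by the exact two-sided permutation test, with exact (Clopper-Pearson) 95% binomial intervals (Python 3.11.15, scipy 1.17.1). Scripts were tested on simulated data. Occupied bin pairs at equal depth are hypergeometric expectations.

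Bins named in the text hold an element the study names (Trav17, Trav21, Trdv2-2, INT1, INT2, Trdd2, TEAp, Traj61, Traj56, Trac, Eα, Dad1), or belong, in each direction, to the 10 bins and 10 interval pairs that changed most on the log2 scale, passed the test and had groups apart; other bins were named after their values were seen. Intervals, lists and tests were chosen with earlier results of these data known. Same-numbered libraries share only a number. Alternatives were TMM factors, DESeq2 1.42.0, no count filter, pairs within a single bin or within 10 kb of the bait left out, each occupied bin pair counted once, distinct pairs of fragments in DP, other library sizes or denominators, the replicate number as a block, and each library left out in turn. Under distinct pairs of fragments in DP, liver kept all its reads, so duplicates were removed on the DP side only. With each occupied bin pair counted once, all libraries were kept at full depth, so those values also depend on depth. Gene names are from GENCODE vM21 and sequences from RefSeq GRCm38.p6.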

Additional observations from a re-analysis of the deposited data

How the results depend on the processing

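Of the 26 named bins past the threshold, all 26 kept their sign with TMM factors, DESeq2 or the whole matrix as library size (25, 26 and 23 still called). Without pairs within a single bin 24 kept their sign and 20 were called, and with each occupied bin pair counted once 23 kept it and 15 were called. All 26 kept their sign with a library left out or with the replicate block, with 19 called without DP replicate 1, 21 to 25 without another library and 11 with the block. All 18 named interval pairs past the threshold kept their sign under the scalings (16 called with TMM factors and with DESeq2), and with a library left out or the block, with 12 called without liver replicate 1, 17 or 18 without another library and 10 with the block. Without pairs within a single bin 17 kept it and 16 were called. The count of bins called was 26 with each occupied bin pair counted once and 29 without DP replicate 1, and ranged from 29 to 63 over the libraries left out; the count of interval pairs ranged from 33 to 49. Shares changed sign in 2 intervals. The INT difference (DP minus liver, percentage points) was 0.0435 without pairs within 10 kb of the bait, 2.03 with all pairs of the matrix as denominator and 1.22 without liver replicate 1. The TEAp and proximal J difference was -0.683 without pairs within a single bin and -1.64 with each occupied bin pair counted once. Signs of single log2 fold changes turned as follows, and the cause was not tested. With each occupied bin pair counted once, the values were -0.49 at Trdd2, -0.83 at Traj61 to Traj56, -0.34 at Trac, -0.56 at 54055001, -1.77 at 54060001 and 0.45 at 53905001. Without pairs within a single bin they were -0.59 at 54060001, 1.35 at 53905001, 0.0865 at 54170001, 0.22 at 54245001 and 0.14 for Tcrd with Tcrd. At the Dad1 bin, 54235001, they were -0.13 with TMM factors, -0.091 with DESeq2, -0.23 with distinct pairs of fragments in DP alone, -0.01 without DP replicate 1, -0.15 without liver replicate 2 and 0.42 without liver replicate 1. At 54240001 they were 0.0545 with distinct pairs in DP alone, 0.12 with the whole matrix as library size and -1.05 to 0.47 with a liver library left out. At 54060001 they were -0.0604 with TMM factors, -0.0512 with DESeq2, -0.13 with distinct pairs in DP alone and -0.0491 to 0.21 with a liver library left out, and at Trac -0.17 to 0.81.

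Leaving out a library in turn, the DP minus liver differences ranged as follows, in percentage points unless stated: both fragments in the region 12.3 to 13.8, a single bin -39.3 to -29.7, downstream flank -12.7 to -11.8, over 500 kb from the bait -6.65 to -5.72, upstream slope 0.06 to 0.14, downstream slope -0.47 to -0.27, proximal V 13.9 to 14.9, INTs -2.18 to 1.22, Tcrd -12.1 to -6.73, distal J -8.41 to -3.35, TEAp and proximal J 0.916 to 1.93, Trac and Eα 2.36 to 2.54, Dad1 side -3.48 to -1.52, different intervals 21.6 to 30.1, proximal V with INTs 5.58 to 6.10, with Tcrd 5.33 to 7.14 and with Trac and Eα 1.36 to 1.60, INTs with Trac and Eα 1.09 to 1.18, INT partners in proximal V 13.2 to 18.9 and in Tcrd -20.2 to -9.45, over 250 kb apart 7.35 to 7.68, and occupied bin pairs 263 to 359.

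With the replicate number as a block, which pairs only replicates 1 and 2 of each group, 13 bins and 18 interval pairs were called. Of the 61 tested bins of the proximal V array 9 were called higher, against 28 without the block. Of the 24 pairs of a V stretch with an interval outside the array 6 were called higher, against 20. Of the 10 pairs of Trac and Eα with another interval 1 was called higher, against 8. The deviations of same-numbered libraries from their group means correlated at 0.105 for number 1 and 0.0181 for number 2, over bins. The block changed no direction of the shares: proximal V was at 13.9, Trac and Eα at 2.36 and pairs within a single bin at -34.3 percentage points. Liver depth limits what can be seen: in liver replicate 2, 3 reads make 0.367% of the pairs of the region, so a small share can give a count of 0.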

Other observations

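These values were chosen after the data were seen. In tiles of 50 kb along the downstream flank, liver took the larger share in most, and the ratio was highest at the far end. The tile that holds Lrp10 and Rem2 took 2.03%, 1.93% and 2.32% of the fragments of the matrix in DP and 3.27% and 3.20% in liver. The tile with Haus4 and Ajuba overlapped, with 1.01%, 0.892% and 0.994% against 1.09% and 0.411%. The tile with Myh6 and Myh7, the cardiac myosin heavy chain genes, held 93, 15 and 82 fragments in DP and 99 and 50 in liver, or 0.0371% ± 0.0230 (SD, n = 3) against 1.02% and 2.05%. The tile before it, from Slc22a17 to Myh6, had 0.107%, 0.103% and 0.0603% against 0.897% and 1.07%. None of these was tested.

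For DP alone, where reads were also given by fragment, the fragments of chromosome 14 at 1 to 5 Mb from the bait were 1.74% of all its fragments, those at 5 to 10 Mb 1.29%, those at 10 to 25 Mb 3.33% and those at more than 25 Mb 3.35% ± 0.0683 (SD, n = 3). Liver reads by fragment were not analysed here.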
